A study of Mus musculus with 2 samples.

Results

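*Csf1r*, *Mrc1*, *C1qa*, *C1qb*, *C1qc*, *Adgre1*, *Cx3cr1* and *Ly86* are genes by which tissue macrophages are commonly recognised. These 8 of the 11691 genes in the count table were taken by name and were read in every cell of cultured mouse embryos and yolk sacs. *Csf1r* encodes the receptor for the growth factor CSF1, on which most macrophages depend for survival. *Mrc1* encodes the mannose receptor CD206, an endocytic lectin. *C1qa*, *C1qb* and *C1qc* encode the chains of C1q, the recognition molecule of the classical complement pathway, which macrophages secrete. *Adgre1* encodes the surface receptor F4/80, *Cx3cr1* the receptor of the chemokine fractalkine, and *Ly86* the secreted protein MD-1, which pairs with the receptor CD180.

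The first macrophages of the mouse arise in the yolk sac before hematopoietic stem cells exist, and they seed the microglia of the brain and other resident macrophages. Monocytes made later from stem and progenitor cells carry *Csf1r* and *Ly86* but acquire C1q and the mannose receptor mainly on becoming tissue macrophages. Mast cells and granulocyte progenitors that make myeloperoxidase (*Mpo*) are other branches of the myeloid tree.

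The embryo proper and the yolk sac of C57/BL6 concepti at E8.5 (5 to 7 somite pairs) were separated and cultured as explants (Em-Ex and YS-Ex) for 10 days at the air-liquid interface. Both kinds of explant received SCF, IL-3 and FLT3 Ligand at 100 ng/ml each, and CSF1 was not among the cytokines named. From each, cells of the phenotype CD31+CD45+c-Kit+CD41- were taken by sorting and captured as 1 droplet library per explant kind, so each group is 1 pool of concepti. Every captured transcript carries a unique molecular identifier (UMI), and a level is given in CPM, the UMIs of a gene per 1000000 UMIs of all genes summed over a group of cells.

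The table held 3504 Em-Ex and 3037 YS-Ex barcodes. The study gives the same counts for the cells it plotted, although its methods state limits on genes and mitochondrial reads per cell. These limits were applied here and left 3071 and 2087 cells, with a median of 12341 and 11729 UMIs. With every barcode instead, the log2 difference of *Mrc1* between the libraries given below moved from -0.86 to -1.91. In all, 35 barcodes occurred in both libraries. Leaving them out moved the summed log2 difference between libraries from 0.58 to 0.59. With 1 library per condition no test was possible, and no statement below compares conditions beyond these 2 libraries. Intervals in parentheses are exact 95% intervals that cover counting error only. Every gene above 0 in a library had UMIs in at least 30 of its barcodes, so a gene listed at 0 may have had a few. All 8 genes were above 0 in Em-Ex, and 7 of the 8 in YS-Ex, where *Ly86* was listed at 0.

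In the GRCm38 genome, the C1q genes are neighbours on chromosome 4, in the order *C1qb*, *C1qc*, *C1qa*, all on the minus strand. The cluster spans 18675 bases, with 3616 and 2851 bases between the genes and 0 annotated genes in these gaps. The exons of *Csf1r* overlap those of *Hmgxb3*, so its counts are less certain. *Mrc1* lies on chromosome 2 from 14229392 to 14332057, *Adgre1* on chromosome 17 from 57358691 to 57483527, *Cx3cr1* on chromosome 9 from 119901616 to 120069879, and *Ly86* on chromosome 13 from 37345208 to 37419036.

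PU.1, encoded by *Spi1*, is a transcription factor that macrophage genes are known to need, and its binding sites contain the core GAGGAA (reverse complement TTCCTC). RefSeq promoter sequences of GRCm38.p6 matched 5 of the 8 genes. They were searched over the 250 bases before the gene start on both strands. The core was found in *Mrc1*, *C1qb* and *C1qc*, and in neither *Cx3cr1* nor *Ly86*, against 23.3% of all 32851 windows of this length. The letters AGATAA (reverse TTATCT), bound by GATA factors of mast cells, were in none of the 5 windows and in 9.99% of all windows. The upstream bases outside annotated exons are shown for the genes with a match, 5′ to 3′ on the strand of the gene. These genes had the highest shares of their Em-Ex UMIs in the macrophage-like cells described below. *Csf1r*, *C1qa* and *Adgre1* were not searched, and whether the core goes with that share was not tested. Capitals mark the core on either strand. *Mrc1* had 3 matches and the other genes 1 each. The stretches are chr2:14229164-14229391 on the plus strand for *Mrc1*, and chr4:136886201-136886450 and chr4:136893066-136893164 on the minus strand for *C1qb* and *C1qc*.
Mrc1: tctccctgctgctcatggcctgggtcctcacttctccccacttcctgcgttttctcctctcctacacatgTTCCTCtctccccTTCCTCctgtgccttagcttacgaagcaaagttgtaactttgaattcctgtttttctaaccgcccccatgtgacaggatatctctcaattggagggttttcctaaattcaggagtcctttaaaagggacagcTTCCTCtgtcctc
C1qb: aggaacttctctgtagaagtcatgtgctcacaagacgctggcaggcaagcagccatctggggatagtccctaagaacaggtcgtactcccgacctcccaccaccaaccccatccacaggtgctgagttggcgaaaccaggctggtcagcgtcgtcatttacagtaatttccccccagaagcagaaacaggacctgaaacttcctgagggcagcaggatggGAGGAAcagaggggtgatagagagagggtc
C1qc: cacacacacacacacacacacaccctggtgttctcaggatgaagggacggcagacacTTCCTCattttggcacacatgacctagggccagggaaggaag

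The 8 genes were sparse in both libraries, and they did not differ between the libraries in one direction. Over all cells, the C1q genes were about 4-fold higher in Em-Ex and *Csf1r* was higher to a lesser degree, whereas *Mrc1*, *Adgre1* and *Cx3cr1* were lower. *C1qb* had 1534 UMIs (406 cells) in Em-Ex against 246 (128 cells) in YS-Ex, or 35.9 against 9.10 CPM, a ratio of 3.94 (3.44–4.53). *C1qa* was at 18.5 against 5.03 CPM, a ratio of 3.68 (3.07–4.45), and *C1qc* at 25.2 against 5.77 CPM, a ratio of 4.37 (3.69–5.21). The 3 chains of the C1q molecule thus shared their direction and, within counting error, their size.

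The receptor genes differed less. *Csf1r* had 301 UMIs in Em-Ex and 97 in YS-Ex, 7.04 against 3.59 CPM, a ratio of 1.96 (1.56–2.49). *Mrc1* had 112 UMIs (33 cells) in Em-Ex against 129 (25 cells) in YS-Ex, or 2.62 against 4.77 CPM, a ratio of 0.549 (0.422–0.713). The growth factor receptor and the mannose receptor thus lay in opposite directions between the libraries. *Adgre1* stood at 8.47 CPM in Em-Ex against 10.7 in YS-Ex, a ratio of 0.789 (0.674–0.924). *Cx3cr1*, detected in more cells than any other of the 8, had 1446 UMIs (744 cells) in Em-Ex against 1377 (561 cells) in YS-Ex, or 33.8 against 50.9 CPM, a ratio of 0.664 (0.616–0.715). *Ly86* had 134 UMIs in 67 Em-Ex cells.

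Summed over the 8 genes, Em-Ex had 135 CPM and YS-Ex 89.9 CPM, a ratio of 1.498 (1.43–1.57). The direction of this sum is set by which genes enter it. Its log2 value of 0.58 became -0.35 without the C1q genes and 1.37 without *Cx3cr1*, both chosen after the values had been seen. Without the macrophage-like cluster 12 described below it was 0.30. For *Mrc1*, a log2 value of -0.86 became -0.19 without cluster 12 and -1.71 without the upper limit on genes per cell. Without the cells that had at least 4 of the genes, which the same UMIs chose, it was -3.33 (-4.59 to -2.37). Among the genes with at least 5 CPM in 1 of the libraries, 6 of the 8 could be compared. Of these, 3 (the C1q genes) were at least 2-fold higher in Em-Ex, against 5.13% of all genes compared. None was at least 2-fold lower, against 10.1% of all.

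Co-expression was rare. At least 1 of the 8 genes had a UMI in 46.1% (Em-Ex) and 40.8% (YS-Ex) of cells, but at least 4 had one in 97 of 3071 Em-Ex cells (3.16%, 2.57–3.84%), compared with 20 of 2087 in YS-Ex (0.958%, 0.586–1.48%). The number of cells with exactly 0, 1, 2 and 3 genes was 1656, 952, 251 and 115 in Em-Ex and 1236, 689, 112 and 30 in YS-Ex. At the limit itself, 62 Em-Ex and 15 YS-Ex cells had exactly 4. At least 6 genes were found in 11 Em-Ex cells and 3 YS-Ex cells, and 1 Em-Ex cell had all 8. With every cell thinned to 3000 UMIs, which left out 0 cells, at least 4 genes were found in 23 Em-Ex cells (0.749%) and 1 YS-Ex cell (0.0479%). The plot of genes per cell shows this decline.

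**Figure D1:**
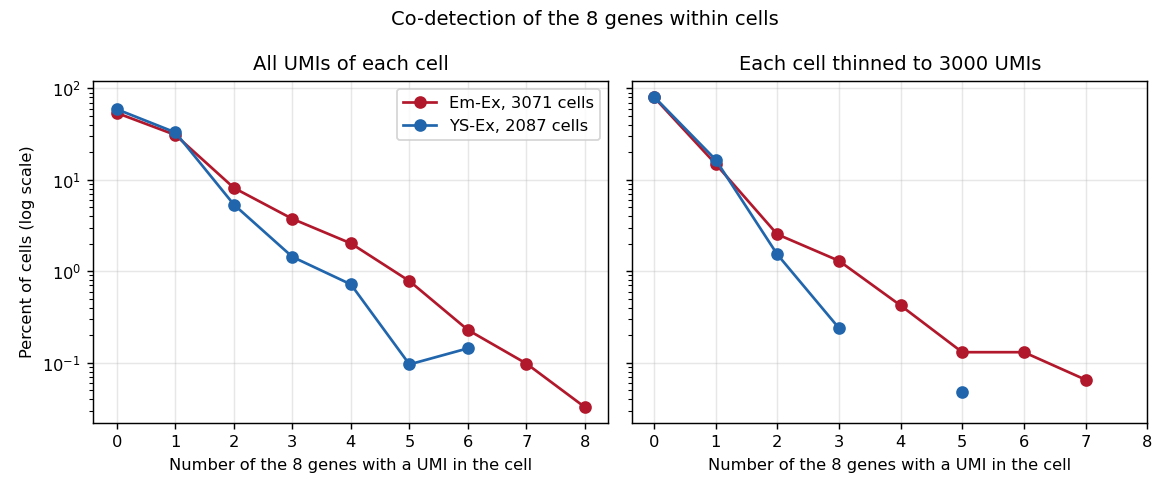
Percent of cells (log scale) by how many of the 8 genes had a UMI in the cell, for 3071 Em-Ex cells (red) and 2087 YS-Ex cells (blue), with all UMIs on the left and with each cell thinned to 3000 UMIs on the right; points at 0 cells are not drawn. From 2 genes upwards the Em-Ex points lie above the YS-Ex points, and 1 Em-Ex cell had all 8 genes.

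Detection of one C1q gene went with detection of the others, while in Em-Ex *Cx3cr1* was only a little more frequent with them than without them. Of the 259 Em-Ex cells with a *C1qa* UMI, 61.0% also had *C1qb*, compared with 8.82% of the cells without *C1qa*. *C1qc* was found in 59.9% and 5.94% of them. In YS-Ex, 46.7% of the 60 cells with *C1qa* also had *C1qb*, against 4.93% of the others. *Mrc1* kept similar company in Em-Ex, where 66.7% of its 33 cells had *C1qb* and 45.5% had *Csf1r*, compared with 12.6% and 4.84% of cells without *Mrc1*. By contrast, *Cx3cr1* was detected in 27.0% of the Em-Ex cells with *C1qa* and 24.0% of those without. For *C1qb* these shares were 29.3% and 23.5%, and for *C1qc* 28.0% and 23.8%. In YS-Ex *Cx3cr1* was found in 41.7% of the 60 cells with *C1qa* and 26.4% of those without. *Csf1r* was found in 4.17% of the 744 Em-Ex cells with *Cx3cr1* and 5.63% of the others. In YS-Ex it was found in 1.25% of the 561 cells with *Cx3cr1* and 3.21% of the others.

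Other macrophage genes were higher in the cells with at least 4 of the genes, and part of this came from the 20 of the 97 Em-Ex cells that belonged to cluster 12. The macrophage list of lysosomal and secreted proteins had 25 of 30 tested genes at least 2-fold higher in these Em-Ex cells than in the other Em-Ex cells and 0 lower, with a median log2 difference of 4.45 against -0.02 over all genes. Of all genes, 6.58% were at least 2-fold higher and 2.26% lower, and of the 8 genes, which chose the cells, 7 were higher. With cluster 12 left out, in a comparison added after the data had been seen, 77 of these cells remained. Of the same list 19 of 30 tested genes were then higher and 0 lower, with a median of 2.90, against 3.25% higher and 2.42% lower of all genes. Markers of other cells moved as well in the 97 cells. Of the monocyte list 6 of 11 tested genes were higher and 0 lower, with the list summing to 2947 against 733 CPM. Of the dendritic cell list 3 of 4 were higher, summing to 549 against 197 CPM, and of the neutrophil progenitor list 3 of 9 were higher and 5 lower, summing to 283 against 447 CPM. Outside cluster 12 these were 1 of 7, 0 of 4, and 2 of 8 with 4 lower. Their part in the levels was not tested. Among the genes with the largest differences in Em-Ex were *Fn1* (fibronectin), at 113 against 0.726 CPM, *Mmp12* (macrophage elastase) at 305 against 2.03 CPM, and *Spp1* (osteopontin) at 2919 against 23.9 CPM. Most of these UMIs were in cluster 12: in the 77 cells outside it, *Fn1* had 1 of the 164 UMIs, *Mmp12* 29 of 442 and *Spp1* 155 of 4232. In those 77 cells *Fn1* was at 0.912 against 0.730 CPM in the other cells outside the cluster, *Mmp12* at 26.5 against 1.90 CPM and *Spp1* at 141 against 20.5 CPM. In YS-Ex the largest differences were those of *Gpnmb*, at 1440 against 6.52 CPM, and *Pf4*, at 2877 against 13.04 CPM, followed by *Mmp12* and the chemokine *Ccl8*. In the 14 of these 20 YS-Ex cells outside cluster 12, *Gpnmb* was at 52.7 CPM, *Pf4* at 122 CPM and *Ccl8* at 207 CPM, and *Mmp12* had 0 UMIs. *Maf* and *Irf8*, transcription factors of monocytes and macrophages, were at 51.0 and 73.1 CPM in the Em-Ex cells with at least 4 genes, against 1.33 and 14.02 CPM in the others, and at 13.7 and 41.1 CPM in the 77 cells outside cluster 12. *Spi1* was at 175 against 139 CPM, a ratio of 1.26 (1.11–1.43). The 8 genes chose these cells, and the other genes did not enter the choice.

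To ask which of the genes are also found in mast cells or in *Mpo*-expressing progenitors, cells were divided by *Cpa3*, which encodes mast cell carboxypeptidase, and by *Mpo*. Cpa3-high cells (1000 CPM or more, with fewer than 3 *Mpo* UMIs) numbered 2493 in Em-Ex and 2036 in YS-Ex. Mpo-expressing cells (at least 3 *Mpo* UMIs and *Cpa3* under 1000 CPM) numbered 215 and 13. Both limits were met by 14 and 1 cells and neither by 349 and 37. These are ranges rather than cell types. In Em-Ex, 103 cells lay between 500 and 2000 CPM of *Cpa3*, and 242 had 1 to 5 *Mpo* UMIs. Besides *Cpa3* and *Mpo*, which set the classes, 17 of 17 mast cell genes were at least 2-fold lower in the Mpo-expressing than in the Cpa3-high Em-Ex cells (14.2% of all genes), and 5 of 6 tested neutrophil progenitor genes were higher (20.4% of all genes).

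The class of the cells with several of the 8 genes changed with depth and with the number of genes required. Of the 97 Em-Ex cells with at least 4 of the 8 genes, 68 were Cpa3-high (70.1%, beside 81.2% of all Em-Ex cells), 3 were Mpo-expressing, 1 met both limits and 25 met neither. Of the 20 YS-Ex cells, 14 were Cpa3-high, 1 was Mpo-expressing and 5 met neither limit. Among Cpa3-high Em-Ex cells this was 68 of 2493 (2.73%), or 7 (0.281%) after thinning. The other 16 of the 23 cells left after thinning met neither limit. The C1q genes count as 3 of the 8 here, and the C1q level of Cpa3-high cells is not read below as expression or as a lack of it. The 68 cells are therefore not read as expressing these genes together, and how many reached 4 genes through C1q was not tested. None of the 11 Em-Ex cells with at least 6 genes was Cpa3-high, and all 11 met neither limit, whereas of the 3 such YS-Ex cells 1 was Cpa3-high and 2 met neither. The 68 cells had *Cpa3* at 9400 CPM and *Kit* at 376 CPM, with *Csf1r* at 34.7 CPM and *Mrc1* at 15.2 CPM. In the 25 cells that met neither limit, *Cpa3* was at 166 CPM, *Csf1r* at 225 CPM and *Mrc1* at 204 CPM. The 11 Em-Ex cells with at least 6 genes all had *Csf1r* and *Mrc1*, and 2 had *Cx3cr1*.

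Each of the 8 genes had its own distribution over these cells. In Em-Ex, Cpa3-high cells were 81.2% of cells with 73.6% of UMIs, and they held 95.9% of the *Cx3cr1* UMIs. Mpo-expressing cells, with 11.9% of UMIs, held 21.6% of the *Ly86* UMIs, and Cpa3-high cells 23.1% of them. *Mrc1* was mostly in cells that met neither limit, which held 78.6% of its UMIs in Em-Ex and 85.3% in YS-Ex.

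Directly compared, the Mpo-expressing Em-Ex cells had 1.96 CPM of *Cx3cr1* against 44.0 CPM in the Cpa3-high cells, a ratio of 0.0445 (0.0213–0.0821). *Ly86* was at 5.69 against 0.985 CPM, a ratio of 5.77 (3.36–9.90), the only one of the 8 genes whose interval lay above 1. The C1q genes were together at 9.81 against 55.0 CPM, a ratio of 0.178 (0.132–0.236). *Csf1r* was at 4.31 against 4.67 CPM, a ratio of 0.924 (0.562–1.45), and *Adgre1* at 6.86 against 7.50 CPM, a ratio of 0.915 (0.623–1.31), so neither differed beyond counting error. *Mrc1*, with 4 UMIs in the Mpo-expressing cells, had a ratio of 1.23 (0.307–3.68).

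Over the 8 genes, the Mpo-expressing cells had 29.4 CPM and the Cpa3-high cells 113 CPM, a log2 difference of -1.94. Of the 6 genes at 5 CPM or more in 1 of these classes, 1 was at least 2-fold higher in the Mpo-expressing cells, against 20.4% of all genes, and 4 were at least 2-fold lower, against 14.2% of all. In YS-Ex, the 13 Mpo-expressing cells had 15 UMIs of the 8 genes in all and 0 of *Cx3cr1*, which was at 52.0 CPM in the Cpa3-high YS-Ex cells. There *Csf1r* (4 UMIs, a ratio of 6.27, 1.66–16.8) and *C1qa* (5 UMIs, a ratio of 6.36, 2.01–15.4) lay above the Cpa3-high level, unlike in Em-Ex. The plot of levels by cell class shows these contrasts.

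**Figure D2:**
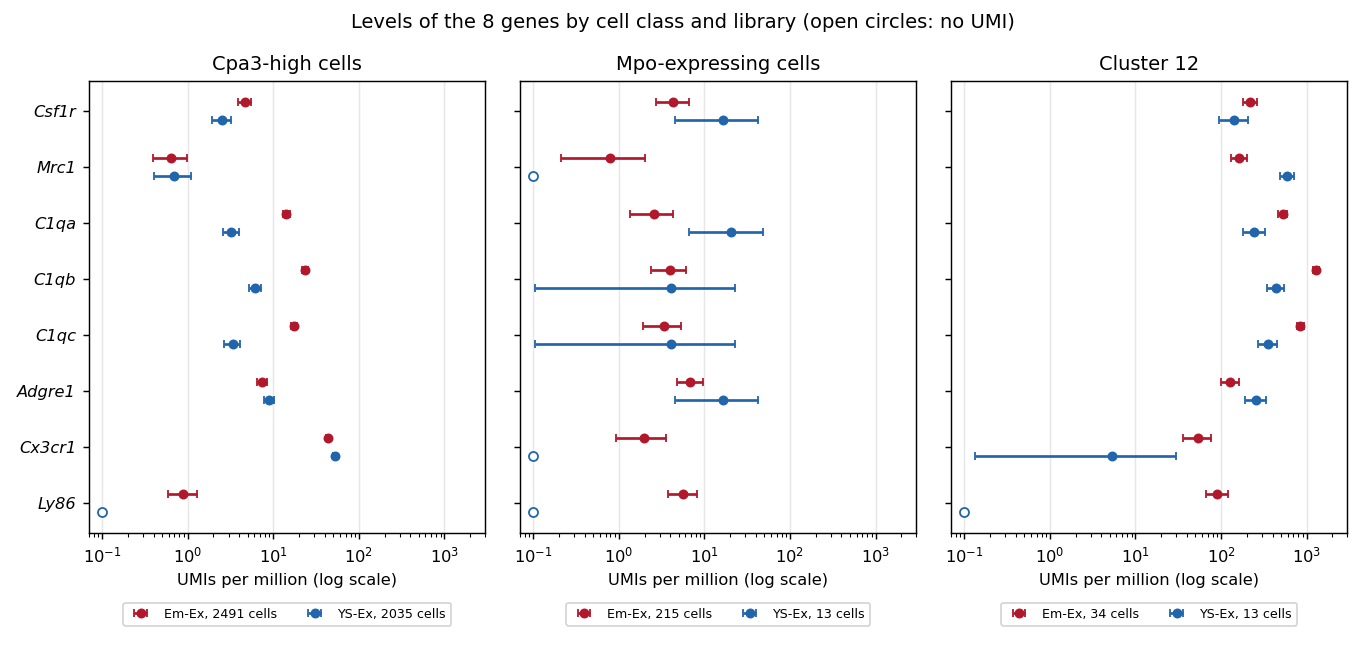
Level of each of the 8 genes (CPM, log scale) in Cpa3-high cells outside cluster 12, Mpo-expressing cells and cluster 12, for Em-Ex (red) and YS-Ex (blue); bars are exact 95% Poisson intervals and open circles at the left edge stand for no UMI. *Cx3cr1* lies at 44.1 and 52.0 CPM in the Cpa3-high panel and at 1.96 CPM in the Em-Ex point of the Mpo-expressing panel, while *Mrc1* lies at 0.636 and 0.685 CPM in the Cpa3-high panel and at 161 and 590.4 CPM in cluster 12.

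Clustering without the 8 genes and without the macrophage lists gave 15 clusters, and cluster 12 stood apart. It held 34 Em-Ex and 13 YS-Ex cells and was macrophage-like: 27 of 31 lysosomal and secreted and 16 of 21 surface markers of macrophages were at least 3-fold higher than in all other cells. Markers of monocytes (9 of 12), dendritic cells (5 of 6) and neutrophil progenitors (4 of 9) passed the same 3-fold limit in it. Unlike the macrophage lists, the lists of these markers were not left out of the clustering. Of the 8 genes, 7 were highest in this cluster of all clusters, and the exception was *Cx3cr1*. Of all genes at 5 CPM or more in a cluster, 13.9% were highest in it. The same 7 were highest in 1 cluster under each of the 3 other settings that kept the 8 genes out of the clustering.

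In the 34 Em-Ex cells of cluster 12, *Csf1r* was at 217 CPM (179–260), against 4.61 CPM in the Cpa3-high cells outside it, a ratio of 47.0 (36.5–60.4). *Mrc1* was at 161 against 0.636 CPM, a ratio of 253 (154–435), and *C1qb* at 1295 against 23.5 CPM, a ratio of 55.2 (49.7–61.2). *Adgre1*, at 128 against 7.35 CPM, had a lower ratio of 17.4 (13.1–22.9). *Ly86* was at 90.8 against 0.891 CPM, a ratio of 102 (62.8–168). *Cx3cr1* was at 53.7 against 44.1 CPM, a ratio of 1.22 (0.813–1.76), but 18 of its 29 UMIs were in 1 cell. Without that cell, left out after its value had been seen, it was at 20.8 CPM, a ratio of 0.472 (0.235–0.848). In the 13 YS-Ex cells *Cx3cr1* had 1 UMI, or 5.32 against 52.0 CPM, a ratio of 0.102 (0.00259–0.571). Thus in Em-Ex 7 of 8 genes were at least 2-fold higher in cluster 12, against 19.5% of all genes tested. Besides *Cpa3*, which set the class compared with, 17 of 17 mast cell genes were at least 2-fold lower there, against 12.4% of all genes, but these genes took part in the clustering.

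The cluster was small but held much of the RNA of these genes. With 1.11% of the Em-Ex cells and 1.26% of their UMIs, it had 77.7% of the *Mrc1* UMIs, 45.6% of *C1qb*, 38.9% of *Csf1r*, 36.6% of *Ly86* and 19.1% of *Adgre1*, but 2.01% of *Cx3cr1*. In YS-Ex it had 0.623% of the cells and 86.1% of the *Mrc1* UMIs. *Kit*, whose product was used for the sort, had 33.3 CPM there in Em-Ex, against 335 CPM in Cpa3-high cells outside it. *Ptprc*, which encodes CD45, was at 106 against 44.0 CPM.

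**Figure D3:**
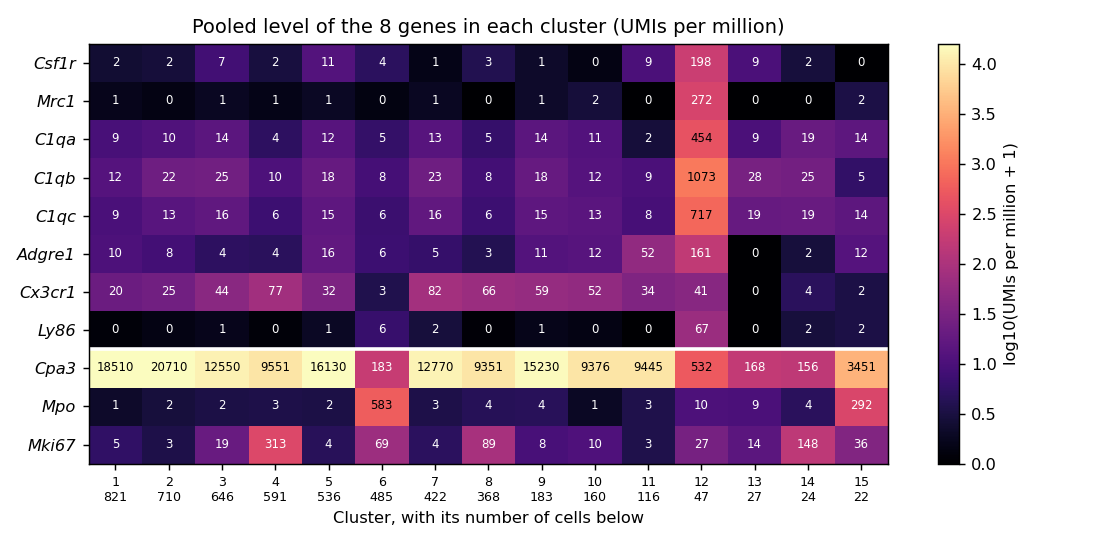
Pooled level (CPM, printed in each square and coloured on a log10 scale) of the 8 genes and of Cpa3, Mpo and Mki67 in 15 clusters of both libraries, with the number of cells under each cluster. Cluster 12, with 47 cells, is the highest column for 7 of the 8 genes, and *Cx3cr1* is highest in cluster 7 at 81.7 CPM.

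Between the libraries, the cells of cluster 12 differed in the pooled levels of the macrophage genes. C1q UMIs were found in 21 of 34 Em-Ex and 8 of 13 YS-Ex cells, *Csf1r* in 25 and 9, and *Adgre1* in 26 and 10. *Mrc1* was found in 14 and 10 of them, and *C1qa* alone in 18 and 2. *Mrc1* stood at 161 CPM in Em-Ex against 590.4 in YS-Ex, a ratio of 0.273 (0.204–0.365), and *Adgre1* at 128 and 255 CPM, a ratio of 0.501 (0.342–0.740). The C1q genes were higher in Em-Ex, together at 2666 against 1032 CPM, a ratio of 2.58 (2.22–3.02). *Csf1r* was at 217 and 144 CPM, a ratio of 1.51 (0.987–2.39), within counting error. Of the 7 genes compared, 4 (the C1q genes and *Cx3cr1*, the latter from 29 UMIs against 1) were at least 2-fold higher in Em-Ex, against 7.34% of all genes, and 2 (*Mrc1* and *Adgre1*) were at least 2-fold lower, against 21.5% of all. *Adgre1* lay at the limit and passed it through the 0.5 UMIs that this count adds to each sum.

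A few cells carried these sums. In YS-Ex, 1 cell had 44 of the 46 *C1qa* UMIs and 139 of the 194 UMIs of all C1q genes, and 77.5% of the *Mrc1* UMIs came from 3 cells. In Em-Ex, the 3 highest cells gave 38.1% of the *C1qb* UMIs. *Cx3cr1* was found in 6 of the 34 Em-Ex cells, and the only cell with all 8 genes had 18 of its 29 UMIs, or 1601 CPM. *Csf1r*, by contrast, was found in 25 of the 34 cells, with a median of 139 and a highest value of 649 CPM.

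Cluster 12 was not uniform in C1q. Of its Em-Ex cells, 18 had at least 10 C1q UMIs, 3 had 1 to 9 and 13 had none. In the 18 cells, *Csf1r* was at 295 CPM, *Mrc1* at 288 CPM, *Mmp12* at 1447 CPM and *Fn1* at 580 CPM, with *Ly6c2*, a gene of inflammatory monocytes, at 7.11 CPM. In the 13 cells without C1q, *Csf1r* was still at 140 CPM and found in 10 cells, *Adgre1* at 90.5 CPM in 12 cells and *Ly86* at 65.8 CPM in 8 cells, whereas *Mrc1* was at 24.7 CPM in 2 cells. *Ly6c2* was at 617 CPM over the 13 cells, from 6 of them, while the 5 YS-Ex cells without C1q had 0 UMIs of it. The monocyte chemokine receptor gene *Ccr2* was at 235 CPM in 11 of the 13 cells, against 74.7 CPM in the 18 cells, and at 409 CPM in 4 of the 5 YS-Ex cells. Clusters 1 and 10 had more of it, at 519 and 521 CPM. *Itgam*, which encodes CD11b of monocytes and macrophages, was lower in the 13 cells, at 37.0 CPM against 117 CPM in the 18 cells. *Fn1* was at 0 in the 13 cells.

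Genes of neutrophils were in a few of the cells without C1q. All 810 *S100a8* UMIs of the 13 Em-Ex cells were in 1 cell. In YS-Ex, where 5 cells had no C1q, *S100a8* was at 32730 CPM, from 3 cells. *Mrc1* had 44 UMIs in 3 of these 5 YS-Ex cells, at 579.9 CPM. The part of these neutrophil genes in the levels of the 8 genes was not tested.

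**Figure D4:**
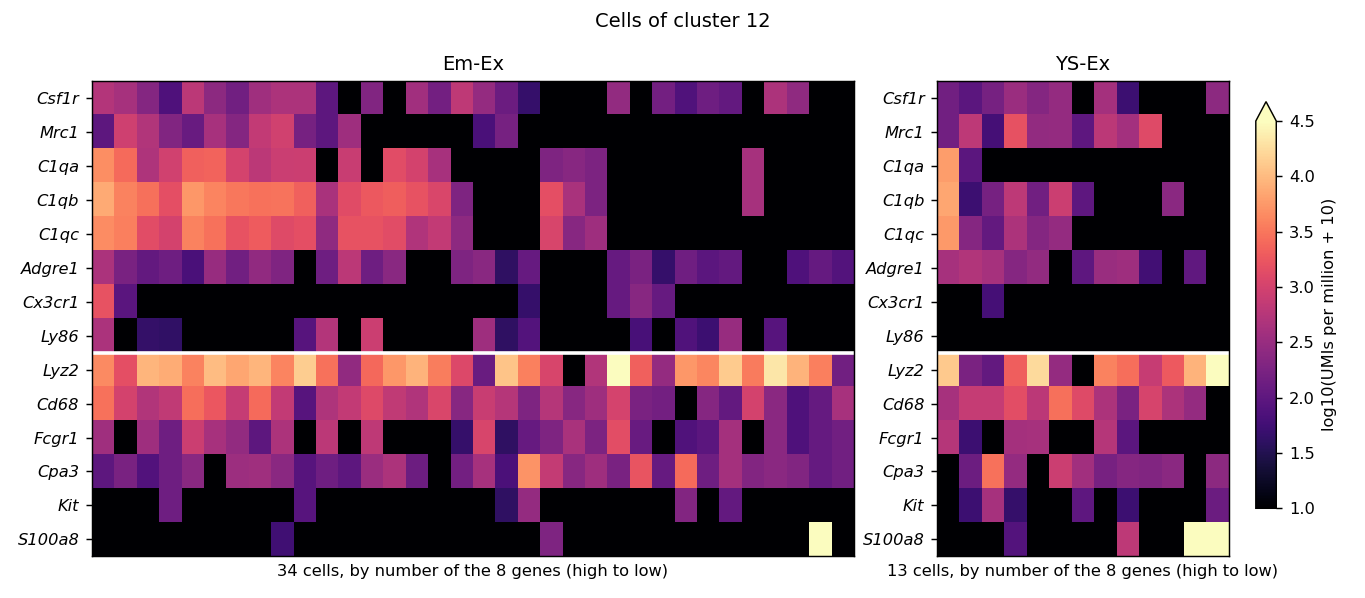
Each column is 1 cell of cluster 12 (34 Em-Ex, 13 YS-Ex), ordered from left to right by how many of the 8 genes it had, and each row 1 of the 8 genes (above the white line) or a further marker, coloured by log10(CPM + 10). The C1q rows are bright on the left of the Em-Ex panel, while *Csf1r* (25 of 34 cells) and *Adgre1* (26 of 34 cells) reach into cells without C1q.

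Outside cluster 12, the Cpa3-high cells of the 2 libraries repeated the C1q difference. *C1qa* stood at 14.2 CPM in Em-Ex against 3.24 in YS-Ex, a ratio of 4.40 (3.48–5.61), *C1qb* at 23.5 and 6.17 CPM, a ratio of 3.81 (3.21–4.54), and *C1qc* at 17.3 and 3.35 CPM, a ratio of 5.18 (4.13–6.56). *Csf1r* was at 4.61 and 2.51 CPM, a ratio of 1.84 (1.36–2.50). *Mrc1*, at 0.636 and 0.685 CPM, did not differ beyond counting error, with a ratio of 0.929 (0.467–1.86). *Adgre1* had a ratio of 0.822 (0.683–0.990) and *Cx3cr1* of 0.847 (0.786–0.914). Of 5 genes compared, 3 were at least 2-fold higher in Em-Ex, against 1.48% of all genes, and 0 lower, against 10.9% of all.

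In Em-Ex, the C1q level of these cells was not above that of clusters 13 and 14. In these clusters, 6 of 6 stromal and 10 of 10 erythroid markers respectively were at least 3-fold higher than elsewhere. Cluster 13 also had 6 of 31 lysosomal and secreted and 1 of 21 surface markers of macrophages at this limit, and 3 of 12 microglia and yolk sac macrophage genes. Cluster 14 had 0 of each. Clusters 13 and 14 held 46 Em-Ex cells with a median of 12642 UMIs. C1q was at 64.9 CPM in them, from 45 UMIs in 7 cells (15.2% of cells), and at 55.1 CPM in the Cpa3-high cells (20.0% of cells, median 11324 UMIs), a ratio of 1.18 (0.857–1.59). The C1q level of the Cpa3-high cells is not read here as expression by these cells or as a lack of it, and its source was not tested. *Csf1r* was likewise at 4.33 CPM in clusters 13 and 14 (3 UMIs), a ratio of 0.938 (0.191–2.80) to the Cpa3-high cells. *Cx3cr1* was at 2.89 CPM in clusters 13 and 14, against 44.1 CPM in the Cpa3-high cells, a ratio of 0.0655 (0.00792–0.237). *Adgre1*, with 1 UMI in clusters 13 and 14, had a ratio of 0.196 (0.00495–1.10). The C1q level of the Mpo-expressing cells, 9.81 CPM, was below both.

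C1q UMIs were unevenly spread over the Cpa3-high cells. In Em-Ex, the 24 cells with the most C1q held 34.2% of the C1q UMIs, and 1 cell had 138. For *Cx3cr1*, the corresponding share was 12.9%. Across Em-Ex cells ordered by C1q UMIs, *Lyz2*, *Apoe* and *Csf1r* were higher in the group with the most C1q than in the group with none. *Cpa3*, *Kit* and *Cx3cr1* stayed at similar levels. In the 1993 cells with no C1q UMI, *Lyz2* (lysozyme) was at 9.87 CPM, *Apoe* at 14.9 CPM and *Csf1r* at 3.76 CPM. In the 37 cells with at least 10, they were at 422, 1333 and 30.9 CPM. *Adgre1* was not higher, at 7.35 and 4.12 CPM. In YS-Ex, *Lyz2* went from 4.85 CPM in cells with no C1q UMI to 142 CPM in the 15 cells with 5 to 9, and *Apoe* from 9.49 to 444 CPM. *Csf1r* there was at 2.72 CPM with no C1q UMI, had 0 UMIs in the cells with 1 to 4, and was at 4.73 CPM, from 1 UMI, in those with 5 to 9. In Em-Ex, over the same range, *Cpa3* went from 11790 to 10420 CPM, *Kit* from 325 to 412 CPM and *Cx3cr1* from 42.5 to 47.4 CPM, and the median UMIs per cell from 11251 to 12158.

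**Figure D5:**
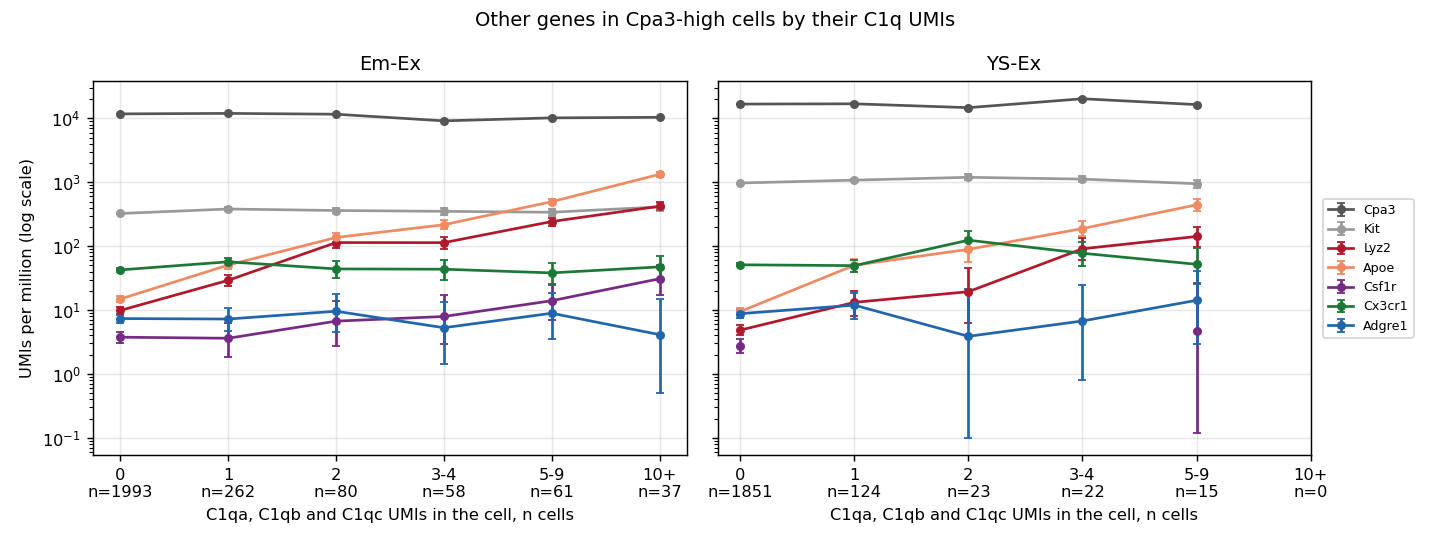
Level of 7 genes (CPM, log scale) in Cpa3-high cells outside cluster 12, grouped by the number of C1q UMIs in the cell, with the number of cells under each group; bars are exact 95% Poisson intervals and groups without a UMI of a gene are not drawn. In Em-Ex, Lyz2, Apoe and Csf1r lie higher in the last group than in the first, at 422, 1333 and 30.9 CPM, while Cpa3, Kit and Cx3cr1 stay near level. Lyz2 and Csf1r do not rise at every step.

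Grouped at 5 C1q UMIs, 98 Cpa3-high Em-Ex cells stood against 1995 with none. *Csf1r* was at 20.4 against 3.83 CPM, a ratio of 5.34 (3.32–8.31), *Ly86* at 8.65 against 0.439 CPM, a ratio of 19.7 (7.75–50.2), and *Mrc1*, from 11 against 3 UMIs, had a ratio of 72.3 (19.1–404). *Adgre1* had a ratio of 0.939 (0.423–1.82) and *Cx3cr1* of 0.981 (0.730–1.29). The C1q genes chose these cells, so nothing is read from the 6 of 8 genes at least 2-fold higher, against 3.55% of all genes. In the macrophage list of lysosomal and secreted proteins, 22 of 30 tested genes were at least 2-fold higher. Of the dendritic cell list 2 of 3 tested genes were higher, the list summing to 196 against 122 CPM, of the megakaryocyte list 1 of 3, summing to 180.1 against 35.6 CPM, and of the monocyte list 1 of 7, summing to 891 against 506 CPM. Their part in the levels was not tested. In YS-Ex only 16 cells had 5 or more C1q UMIs, and 1 of them, in cluster 12, had 8 of their 11 *Adgre1* UMIs. In the other 15 cells *Adgre1* was at 14.2 against 8.78 CPM, from 3 UMIs, a ratio of 1.62 (0.331–4.79), and *Cx3cr1* had a ratio of 1.02 (0.507–1.83). Whether such barcodes hold 2 cells was not tested, and no caller of doublets was run.

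*Cx3cr1* was the gene of the 8 that belonged to the Cpa3-high cells, and it varied among them. Cluster 7, led by *Igf2* and the mast cell protease genes *Mcpt2* and *Mcpt4*, had the highest pooled level, made up of 44.7 CPM (35.6–55.4) for Em-Ex and 121 CPM (106–139) for YS-Ex. In Em-Ex alone it was below cluster 4, which was at 72.1 CPM (65.7–78.9). Clusters 4 and 8 had *Mki67*, a marker of proliferation, at 313 and 89.3 CPM, and 10 of 16 and 1 of 16 markers of mitosis and S phase at least 3-fold higher than elsewhere. In these clusters *Cx3cr1* was at 68.4 CPM in Em-Ex, against 30.6 CPM in the other Cpa3-high cells, a ratio of 2.24 (2.01–2.49), and at 80.3 against 42.9 CPM in YS-Ex, a ratio of 1.87 (1.67–2.09). *Adgre1* went the other way in clusters 4 and 8, with ratios of 0.386 (0.269–0.543) in Em-Ex and 0.319 (0.196–0.496) in YS-Ex. The C1q genes were likewise lower there in Em-Ex, with a ratio of 0.374 (0.329–0.425). Cluster 6, which holds most *Mpo* UMIs, had *Cx3cr1* at 2.83 CPM.

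*Adgre1* had a second site outside cluster 12. Cluster 11 was led by *Penk* and by genes induced by low oxygen, such as *Ankrd37*, *Bnip3* and *Egln3*. There *Adgre1* was at 31.0 CPM in Em-Ex, against 7.03 CPM in the other Cpa3-high cells, a ratio of 4.40 (2.60–7.05), and at 79.3 against 7.94 CPM in YS-Ex, a ratio of 10.0 (6.88–14.2). *Csf1r* was at 14.6 against 2.40 CPM in its YS-Ex cells, from 7 UMIs, a ratio of 6.09 (2.35–13.3), and at 4.89 against 4.67 CPM in its Em-Ex cells. The C1q genes were not higher in this cluster, with ratios of 0.469 (0.268–0.765) in Em-Ex and 0.802 (0.259–1.89) in YS-Ex. *Ly86*, outside cluster 12, was highest in cluster 6, with 55 UMIs in 23 Em-Ex cells at 5.71 CPM.

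Genes that work with the 8 were read as lists. *Csf1*, which encodes the ligand of CSF1R, stood at 25.2 CPM in Em-Ex against 57.2 in YS-Ex, a ratio of 0.441 (0.407–0.476). In Em-Ex it was at 32.3 CPM in Cpa3-high and 1.77 CPM in Mpo-expressing cells, a ratio of 0.0546 (0.0249–0.104), so ligand and receptor were found in different proportions over the cell classes. Of 20 genes tested in the list of CSF1 receptor ligands and signalling, 0 were at least 2-fold higher in Em-Ex (5.13% of all genes) and 3 lower (10.1% of all genes), with a median log2 difference of -0.55 against -0.02 over all genes. *Cd180*, the partner of *Ly86*, had 16.7 CPM in cluster 12 of Em-Ex, against 2.93 CPM in Cpa3-high cells outside it, a ratio of 5.70 (2.52–11.3). *Trem2*, a lipid receptor of macrophages and microglia, had 511 and 489 CPM in cluster 12 of Em-Ex and YS-Ex, a ratio of 1.04 (0.823–1.34). *Maf* was at 117 and 388 CPM there, a ratio of 0.301 (0.211–0.427), like *Mrc1* lower in Em-Ex.

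Complement genes other than C1q were read in the cells with at least 4 of the 8 genes. In Em-Ex, 5 of the 8 tested were at least 2-fold higher than in other cells and 0 lower, against 6.58% and 2.26% of all genes, among them the anaphylatoxin receptor gene *C5ar1* at 85.5 against 7.85 CPM and *C3ar1* at 158 against 28.9 CPM. Outside cluster 12 it was 2 of 6, with *C5ar1* at 26.5 against 7.37 CPM and *C3ar1* at 55.7 against 28.3 CPM. In the list of microglia and yolk sac macrophage genes, 3 of 8 tested were higher and 0 lower, and outside cluster 12 it was 2 of 7, beside the same shares of all genes (6.58% with and 3.25% without cluster 12 higher). *Fcrls* was at 28.3 against 1.21 CPM, and at 20.1 against 1.22 CPM outside cluster 12, while the microglial genes *Tmem119* (5 UMIs, 3.45 against 2.61 CPM) and *P2ry12* (4 UMIs, 2.76 against 0.799 CPM) had few counts, and both were listed at 0 in YS-Ex.

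Over 24 points, each a cluster in 1 library with at least 20 cells, the genes whose log2(CPM + 10) most resembled the sum of the 8 were *Ms4a6d* (Pearson r 0.942), *Fth1* (0.931), *Msr1* (0.922), *Plin2* (0.921) and *Slc15a3* (0.907). *Msr1* encodes a scavenger receptor and *Fth1* ferritin heavy chain. For *Adgre1* alone they were *Itgam* (0.868) and *Lgals3* (0.859), and for *Cx3cr1* alone *Mkks* (0.802) and *Spns1* (0.801). Cluster 12 is 1 of these points, its 13 YS-Ex cells being too few for another. Without it, left out after the values had been seen, 23 points remained and the likeness to the sum was 0.628 for *Ms4a6d*, 0.597 for *Fth1*, 0.442 for *Msr1*, 0.617 for *Plin2* and 0.133 for *Slc15a3*, so it rested largely on that point. For *Adgre1* it was then 0.755 with *Itgam* and 0.736 with *Lgals3*, and for *Cx3cr1* 0.828 with *Mkks* and 0.808 with *Spns1*. These points share libraries and depth, and the values are descriptions.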

How the data were processed

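CD31+CD45+c-Kit+CD41- cells of 1 Em-Ex and 1 YS-Ex pool were captured by droplets. The authors deposited raw UMI counts per gene and barcode, aligned to mm10 with Cell Ranger 2.0.1 after bcl2fastq 2.19.1.403, per the submitters' processing notes. The counts were used as deposited. Barcodes with 1000 to 5000 genes and at most 5% mitochondrial UMIs were kept, leaving 5158 of 6541. No doublet caller was run, and the upper gene limit was the only guard.

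Depth was a median of 12341 UMIs per cell in Em-Ex and 11729 in YS-Ex. UMIs were summed over cells of a library and class, and divided by the summed total (CPM). Poisson, Clopper-Pearson and conditional ratio intervals (all exact, 95%) were computed with scipy 1.17.1 and numpy 2.4.6 in Python 3.11.15, and were tested on simulated data. Genes at 5 CPM or more in 1 of the groups compared were counted at 2-fold, with 0.5 UMIs added to each sum. With 1 library per condition no test of conditions was run.

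Cells were clustered with Leiden (leidenalg 0.10.2, resolution 1) in place of the clustering of the study, on 100 principal components of 2000 variable genes. The 8 genes and the macrophage lists (90 genes) were left out of the variable genes, and the libraries were aligned by mutual nearest neighbours (k of 20). Clusters were named only from marker lists at 3-fold. The 8 genes and all lists were chosen with earlier results of these data known. Genes outside the lists were named by size of the difference among those at 50 CPM or more. Cell classes used limits of 1000 CPM for *Cpa3* and 3 UMIs for *Mpo*. Promoter sequences came from RefSeq and gene positions from the GENCODE annotation of GRCm38. Alternatives changed the cell filter, scaling, limits, clustering and the set of genes. Some genes that met the naming rule are not reported here.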

Additional observations from a re-analysis of the deposited data

Results flagged for a closer look

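Barcodes that the cell filter removed also carried several of the 8 genes. In Em-Ex, 10 of 433 removed barcodes had at least 4 of them (2.31%, 1.11–4.21%), and 0 had at least 6. In YS-Ex it was 11 of 950 (1.16%, 0.579–2.06%), and 4 had at least 6. Among the YS-Ex barcodes were 4 with *Cpa3* under 1000 CPM, against 1 in Em-Ex. The removed YS-Ex barcodes held 189 *Mrc1* UMIs in 14 barcodes, with 72 in 1 of them, compared with 129 *Mrc1* UMIs in all kept YS-Ex cells. Of the removed YS-Ex barcodes, 917 exceeded the mitochondrial limit and 34 the upper gene limit, and the latter held 109 of the *Mrc1* UMIs in 3 barcodes.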

How the results depend on the processing

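No paired analysis was possible because each condition is 1 library, and no replicate could be left out. The log2 difference of the summed genes between Em-Ex and YS-Ex, 0.58, was 0.40 with every barcode, 0.43 without the upper gene limit, 0.72 without Mpo-expressing cells, 0.30 without cluster 12 and 1.37 without *Cx3cr1*. It turned to -0.029 (-0.11 to 0.05) without cells that had at least 4 of the genes, a fall that is built in because the same UMIs chose these cells, and to -0.35 without the C1q genes. Leaving out cluster 12, *Cx3cr1*, the C1q genes or *Ly86* was chosen after seeing the data. The percent of cells with at least 4 genes, 3.16 in Em-Ex and 0.958 in YS-Ex, was 0.749 and 0.0479 after thinning to 3000 UMIs, and 0.782 and 0.288 when 2 UMIs per gene were required. It was 6.90 and 2.40 for at least 3 genes and 1.14 and 0.240 for at least 5, and 2.48 in Em-Ex with C1q counted as 1 gene and at least 3 of 6 genes required. The log2 difference of Mpo-expressing over Cpa3-high Em-Ex cells, -1.94, was -2.21 with size factors, -1.65 with a limit of 1 *Mpo* UMI, -1.32 without *Cx3cr1* and -1.55 without the C1q genes. For *Mrc1*, -0.86 between the libraries became -1.91 with every barcode, -1.71 without the upper gene limit, -0.19 without cluster 12 and -3.33 without the cells that had at least 4 of the genes. Em-Ex Cpa3-high cells outside cluster 12 had 20 *Mrc1* and 28 *Ly86* UMIs, which limits what their values can show. Without cluster 12, also added after seeing the data, complement genes higher in Em-Ex cells with at least 4 of the 8 genes went from 5 to 2, and *Adgre1* in YS-Ex Cpa3-high cells with at least 5 C1q UMIs over none from a log2 ratio of 2.44 to 0.69. The log2 ratio of *Cx3cr1* in Em-Ex cells of cluster 12 over Cpa3-high cells, 0.29, turned to -1.08 without the cell with the most *Cx3cr1* UMIs, likewise added. The other 42 alternative values of the summed, shared and counted results kept their direction and stayed within counting error, or within 1.5 times for counts. For single genes and lists, 74 values did so, 18 moved further and 1 reversed. The causes were not tested.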
